A study of Rattus norvegicus with 6 samples.

Results

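Perineuronal net genes of cultured rat hippocampal neurons were followed across overexpression and knockdown of Cyclin Y (CCNY). The set was chosen by name, with earlier results of these data known. It holds 9 genes: the lecticans Acan, Bcan, Ncan and Vcan, the link proteins Hapln1 and Hapln4, the tenascins Tnr and Tnc, and Reln. Rows for 8 of them were found among the 17066 genes of the deposited table, and Tnc was not analysed here. The neurons came from Sprague-Dawley embryos at embryonic day 18 and were infected at day 5 or 6 in vitro (DIV) with lentivirus made from the FUGW vector, in which a ubiquitin promoter drives EGFP. The virus carried EGFP alone (EGFP, the control), CCNY-WT-EGFP (CCNY-WT, overexpression) or CCNY-shRNA-EGFP (CCNY-shRNA, knockdown), so that every culture, the control included, was infected and carried EGFP. No library carried an shRNA without a target, so in CCNY-shRNA lower CCNY and the presence of an shRNA cannot be told apart. Total RNA of the whole culture was taken at DIV 14, and each condition was sequenced as 2 libraries. No source used here says that the 2 libraries came from separate cultures, so the p-values measure the spread between libraries, which may be technical.

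Perineuronal nets are lattices of extracellular matrix that form around the cell body and dendrites of certain neurons, best known around fast-spiking parvalbumin interneurons. Their backbone is hyaluronan. Lecticans, which are chondroitin sulfate proteoglycans, bind hyaluronan at one end, the link proteins (Hapln) lock that bond, and tenascins join the other ends of the lecticans. Reelin, the product of Reln, is a secreted matrix glycoprotein that steers neuronal migration in the embryo and acts on synapses later, and in the hippocampus it is made mainly by interneurons and, early on, by Cajal-Retzius cells.

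Values are FPKM, fragments scaled by transcript length and by the mapped fragments of the library, 1 value per gene and library. The deposited table holds no read counts, and depth relative to EGFP replicate 1, estimated from the steps in which the FPKM of weak genes rise, ranged from 0.816 to 1.30 over the 6 libraries. From 9955 to 10002 genes reached an FPKM of 1 in each library. In CCNY-WT replicate 1 the RNA Bc1 made up 15.1% of the summed FPKM. The targeted gene followed the labels, since Ccny stood at 43.1 and 42.3 FPKM in the controls, 108 and 109 under overexpression, and 5.98 and 6.19 under knockdown. Differences between conditions were tested with limma on log2 FPKM, with values under 1 set to 1, for the 10188 genes that reached an FPKM of 1 in 2 or more libraries. All 8 matrix genes passed this filter in every library. Adjusted p-values are Benjamini-Hochberg values over all 10188 genes, and ± gives the SD of 2 libraries. For a single gene, an exact two-sided permutation test of 2 libraries against 2 cannot go below p = 0.333, so none was used.

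The matrix genes spanned a wide range of levels in the control. Ncan (neurocan), a lectican made by neurons and astrocytes, was the most abundant, with an FPKM of 77.6 ± 2.26 in EGFP (n = 2). Reln followed at 34.1 ± 1.56 and Bcan (brevican), the short lectican of the adult brain, at 28.9 ± 0.506. Hapln1, the link protein best known from cartilage and from neurons that bear nets, stood at 15.6 ± 0.992, and Tnr (tenascin-R), which crosslinks lecticans in the net, at 13.5 ± 0.794. The 3 least abundant were Vcan (versican, 5.85 ± 0.284), Hapln4 (the brain link protein Bral2, 4.66 ± 0.650) and Acan (aggrecan, the lectican that defines nets, 4.14 ± 0.130). In EGFP, neighbours in this order did not overlap, except Hapln4 and Acan, whose libraries at 4.20 and 5.12 overlapped those at 4.05 and 4.24. Across all 6 libraries the ranges of Reln and Bcan, of Hapln1 and Tnr, of Vcan and Hapln4, and of Hapln4 and Acan overlapped. By condition means, Bcan stood above Reln in CCNY-WT (31.4 against 30.7) and Hapln4 stood above Vcan in CCNY-WT (6.01 against 5.49) and in CCNY-shRNA (5.71 against 5.47), while Hapln1 stood above Tnr in CCNY-WT and under it in CCNY-shRNA (10.9 against 11.2), and Hapln4 stood above Acan in all 3 conditions. By the mean over all 6 libraries, Ncan lay at the 85.1st percentile of genes with a mean FPKM of at least 1 and Acan at the 15.7th.

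**Figure D1:**
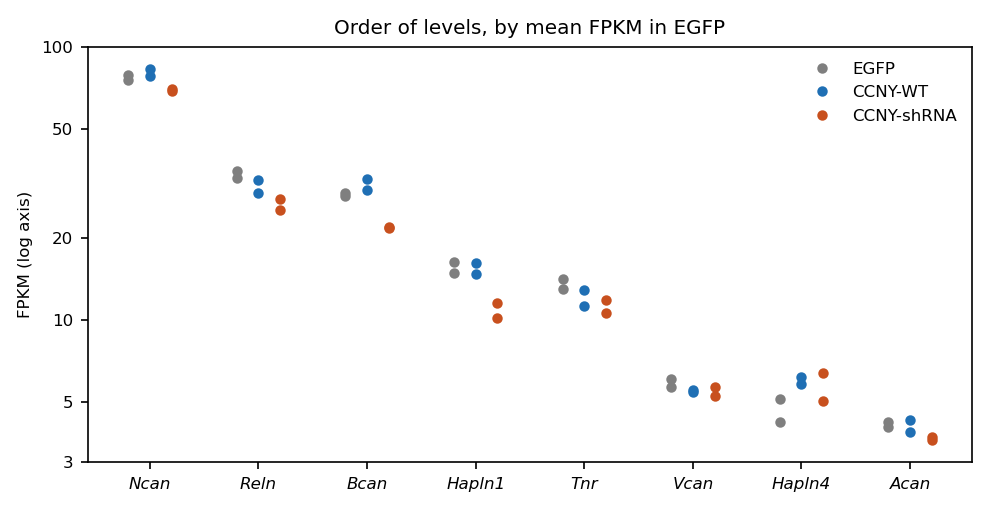
FPKM (vertical log axis) of the 8 matrix genes, ordered by their mean in EGFP; each point is 1 library, 2 a condition (grey EGFP, blue CCNY-WT, orange CCNY-shRNA). Ncan lies between 68.8 and 83.3 in all 6 libraries, apart from every other gene, while Acan lies between 3.62 and 4.29.

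The knockdown comparison asks how the matrix genes stand when Cyclin Y is reduced. In CCNY-shRNA, 7 of the 8 genes had a mean below that of EGFP, as 49.8% of all genes tested had. For 6 of them both knockdown libraries lay below both control libraries, against 24.5% of all genes tested, and for 0 of them both lay above, against 23.9%. The lower levels were most marked for Hapln1, Bcan and Reln, at 0.695, 0.755 and 0.775 times the control. None of the 8 genes passed limma's adjusted threshold of 0.05, which 0.746% of all genes tested passed, and 4 (Bcan, Hapln1, Reln and Ncan) had an unadjusted p under 0.05 with a lower level, against 9.36% of all genes tested (18.6% in either direction). The median log2 change of the 8 genes was -0.22, beside 0 for all genes tested. In these bulk samples, fewer cells of a type and less RNA per cell cannot be told apart.

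Among the lecticans, Bcan had an FPKM of 28.5 and 29.2 in the controls and 21.8 in each CCNY-shRNA library. The knockdown libraries lay below both controls and differed from each other by less than the controls did. The log2 change was -0.41 (standard error 0.0752, limma adjusted p = 0.0600). Over 15 other settings of the analysis the change stayed between -0.42 and -0.39 and the adjusted p between 0.0515 and 0.307. Ncan stood at 76.0 and 79.2 in the controls against 70.3 and 68.8, again without overlap, but the difference was smaller (log2 change -0.16, standard error 0.0578, limma adjusted p = 0.205). Acan, at 4.05 and 4.24 against 3.71 and 3.62, had a log2 change of -0.18 with a 95% interval from -0.53 to 0.18. For Vcan, at 5.65 and 6.05 against 5.67 and 5.27, the libraries of the conditions overlapped, and the interval of the log2 change ran from -0.42 to 0.22. For these low lecticans the intervals are wide and include both no difference and one as large as that of Bcan.

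The 2 link proteins stood on opposite sides of the control. Hapln1 had an FPKM of 14.9 and 16.3 in the controls and 10.2 and 11.5 under knockdown, with no overlap and the lowest log2 change of the set (-0.52, standard error 0.112, limma adjusted p = 0.0807). Hapln4 was the only gene of the set with a higher mean in CCNY-shRNA, but its libraries overlapped, at 4.20 and 5.12 in the controls against 6.36 and 5.06. Its log2 change was 0.29, with a 95% interval from -0.12 to 0.70 (limma adjusted p = 0.417). The ratio of Hapln1 to Hapln4 FPKM was 3.54 and 3.18 in the controls and 1.60 and 2.28 under knockdown, and the 2 knockdown values differed from each other by more than the controls did.

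Tnr was at 14.1 and 13.0 in the controls and at 11.8 and 10.6 under knockdown. Both knockdown libraries lay below both controls, and the log2 change of -0.27 had a 95% interval from -0.55 to 0.0049 (limma adjusted p = 0.277). Reln had an FPKM of 33.0 and 35.2 in the controls against 27.7 and 25.2, also without overlap. Its log2 change was -0.37 (standard error 0.0867, limma adjusted p = 0.0915), and over the 15 other settings it stayed between -0.44 and -0.30 with an adjusted p of 0.0761 to 0.370.

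**Figure D2:**
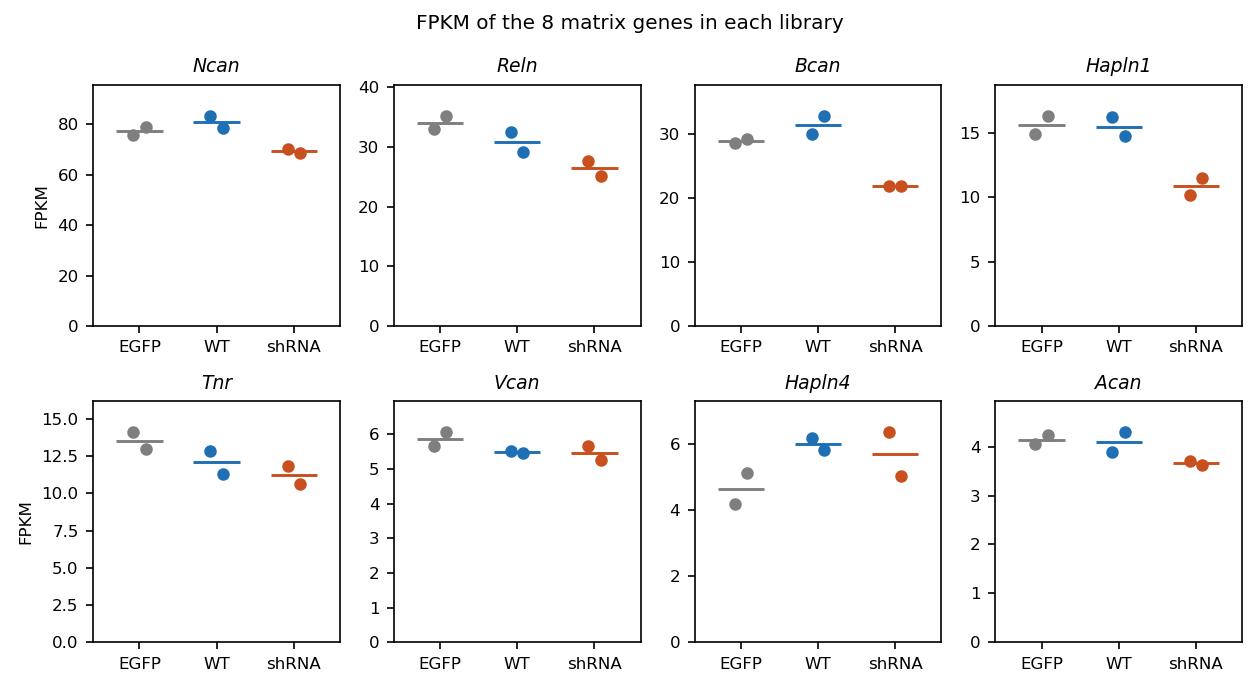
FPKM (vertical axis from 0) of each matrix gene in EGFP, CCNY-WT and CCNY-shRNA; points are libraries and horizontal lines the means of 2. For Bcan the CCNY-shRNA libraries both lie at 21.8, under the EGFP libraries at 28.5 and 29.2, while for Hapln4 the CCNY-shRNA libraries at 6.36 and 5.06 overlap the EGFP libraries.

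The study called genes by a log2 difference of at least 0.33 in CCNY-shRNA, and its methods also name cuffdiff for the selection. It lists Bcan and Reln as lower in the knockdown and reports Reln as regulated by CCNY in its qRT-PCR. By the log2 difference alone, Bcan, Hapln1 and Reln were lower, 3 of 8 genes, where 7.59% of the genes tested here were lower by as much, and 0 of 8 were higher, where 5.52% were. Which genes passed depended on single libraries, except for Bcan and Hapln1, which passed with any 1 library left out. Without CCNY-shRNA replicate 1, Tnr passed as well, at -0.35. Reln no longer passed without EGFP replicate 2 (-0.32) or CCNY-shRNA replicate 2 (-0.30), and Hapln4 then passed as higher, at 0.43 and 0.46. Without EGFP replicate 2, Tnr also passed, at -0.33. The sequences just upstream of these 3 genes are shown because their products, a proteoglycan, its link protein and a secreted glycoprotein, were the ones that stood lowest together. They are the 250 bases before the start of each gene from RefSeq (rat build GRCr8, a later build than the rn4 used for the files), read 5′ to 3′ on the strand of the gene, which is the minus strand for Bcan at chr2:175765315-175765564 and the plus strand for Hapln1 at chr2:22366717-22366966 and Reln at chr4:13628318-13628567. Capitals mark matches on either strand to the GC box GGGCGG or the E-box CACGTG.
Bcan: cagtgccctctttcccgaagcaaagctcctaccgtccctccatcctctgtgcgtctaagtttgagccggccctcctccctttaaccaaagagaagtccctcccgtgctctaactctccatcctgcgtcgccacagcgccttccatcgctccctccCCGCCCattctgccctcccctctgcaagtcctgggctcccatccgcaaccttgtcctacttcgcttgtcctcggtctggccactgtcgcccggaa
Hapln1: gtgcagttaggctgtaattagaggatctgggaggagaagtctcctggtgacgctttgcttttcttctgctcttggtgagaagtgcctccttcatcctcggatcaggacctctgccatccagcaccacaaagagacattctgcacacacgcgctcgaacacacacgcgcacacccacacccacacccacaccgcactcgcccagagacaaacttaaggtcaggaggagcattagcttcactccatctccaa
Reln: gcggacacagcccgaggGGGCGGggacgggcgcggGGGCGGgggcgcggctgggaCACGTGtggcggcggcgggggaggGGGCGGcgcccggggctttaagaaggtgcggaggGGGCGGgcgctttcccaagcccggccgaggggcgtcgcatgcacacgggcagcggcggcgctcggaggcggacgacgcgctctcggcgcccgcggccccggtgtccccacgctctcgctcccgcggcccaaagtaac

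The 3 upstream sequences shared little by these measures. That of Reln had a GC content of 80.0% with 41 CpG dinucleotides, above 98.9% of the 33469 promoters in the RefSeq table by GC content, and held 4 GC boxes and 1 E-box. That of Bcan had a GC content of 61.2% and 1 GC box, on the other strand, and that of Hapln1 had 54.0% and no match. The GC box, found in 30.5% of all promoters, the E-box (5.59%), the CCAAT box CCAAT (34.0%), the TATA box TATAAA (12.9%) and the cAMP response element TGACGTCA (1.59%) were searched on both strands in windows of the same length, and none of the last 3 was found in these 3 windows. These searched motifs do not overlap each other in the sequences shown, and a match is a description of letters only.

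The overexpression comparison asks whether more Cyclin Y moves the same genes. In CCNY-WT, 5 of 8 genes had a log2 change below 0, as 48.6% of genes tested had, and 3 above, with a median of -0.02 beside 0.0041 for all genes tested. None passed limma's adjusted threshold, which 0.00982% of genes tested (Ccny alone) passed, and 0 of the 8 had an unadjusted p under 0.05, against 6.83% of genes tested. The smallest adjusted p of the 8 was 0.746. CCNY-WT and CCNY-shRNA were set against the same 2 EGFP libraries, so the comparisons share their control.

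Hapln4 differed from the control by the largest amount, with 4.20 and 5.12 in the controls and 6.19 and 5.83 under overexpression. The CCNY-WT libraries lay above both controls, and Hapln4 alone passed the log2 difference of 0.3 by which the study called genes in CCNY-WT, as 4.59% of genes tested here did in this direction, and 0 of 8 passed it downward, as 3.76% did. The log2 change was 0.37 (95% interval -0.03 to 0.78, limma adjusted p = 0.746) and was 0.23 without EGFP replicate 1, under that difference. Bcan also lay above both controls, at 30.0 and 32.8 (log2 change 0.12, 95% interval -0.06 to 0.29), as 20.3% of genes tested did. Below both controls, as 19.2% of genes tested, lay Reln at 32.4 and 29.1, Tnr at 12.9 and 11.3, and Vcan at 5.53 and 5.46, with log2 changes of -0.15, -0.17 and -0.09. The libraries of Ncan (83.3 and 78.4), Acan (3.89 and 4.29) and Hapln1 (16.2 and 14.8) overlapped the controls. The interval of the log2 change of Hapln1 in CCNY-WT ran from -0.27 to 0.25.

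Set directly against CCNY-WT, all 8 genes had a lower mean in CCNY-shRNA, as 49.5% of genes tested had, with a median log2 change of -0.19 beside 0.0010 for all genes tested. For 5 of them (Acan, Bcan, Ncan, Hapln1 and Reln) the libraries did not overlap, against 21.9% of genes tested that were lower without overlap and 20.3% that were higher. Bcan came nearest to the adjusted threshold, which 0.216% of genes tested passed, at 30.0 and 32.8 under overexpression and 21.8 in each CCNY-shRNA library (log2 change -0.52, standard error 0.0752, limma adjusted p = 0.0556). It passed under 3 of 15 other settings, with adjusted p-values of 0.0414 to 0.0439, and missed it under the other 12, up to 0.359. Hapln1 (log2 change -0.51, limma adjusted p = 0.160), Ncan (-0.22, adjusted p = 0.229) and Reln (-0.22, adjusted p = 0.382) had an unadjusted p under 0.05, as did Bcan, 4 of 8 genes where 7.12% of genes tested did so with a lower level (12.2% in either direction). The difference of Vcan was -0.0080, with a 95% interval from -0.33 to 0.31.

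**Figure D3:**
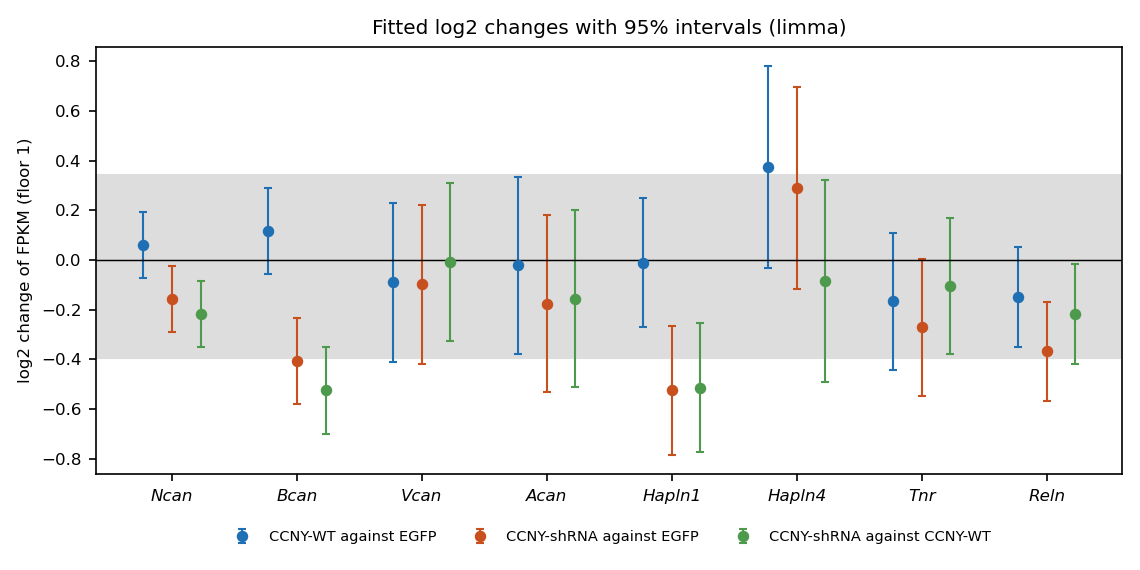
Log2 change of FPKM (vertical axis, values under 1 set to 1) of the 8 matrix genes in 3 comparisons; points are limma estimates and bars 95% intervals over 2 libraries a group, and the grey band, from -0.39 to 0.34, leaves out the lowest and highest 5% each of all genes tested in CCNY-shRNA against EGFP. The points of Bcan and Hapln1 for CCNY-shRNA lie under the band, and that of Hapln4 for CCNY-WT lies just above it. The same range for CCNY-WT against EGFP, not drawn, was narrower, from -0.255 to 0.287.

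The lecticans were also compared as a mixture, since FPKM is scaled by length. The FPKM of Ncan, Bcan, Vcan and Acan summed to 114 and 119 in the controls, 123 and 121 under overexpression, and 101 and 99.5 under knockdown, where both libraries lay below the other 4. Ncan made up 66.6% ± 0.122 of the sum in the controls, 66.4% ± 2.16 under overexpression and 69.2% ± 0.102 under knockdown (SD, n = 2). Bcan made up 24.8% ± 0.243, 25.8% ± 1.89 and 21.7% ± 0.324. The share of Bcan in CCNY-shRNA, at 21.5% and 21.9%, thus lay below that of the other 4 libraries, at 24.4% to 27.1%, and the share of Ncan lay above theirs. Vcan held 4.51% to 5.59% and Acan 3.17% to 3.66% of the sum in every library. These shares were not tested.

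**Figure D4:**
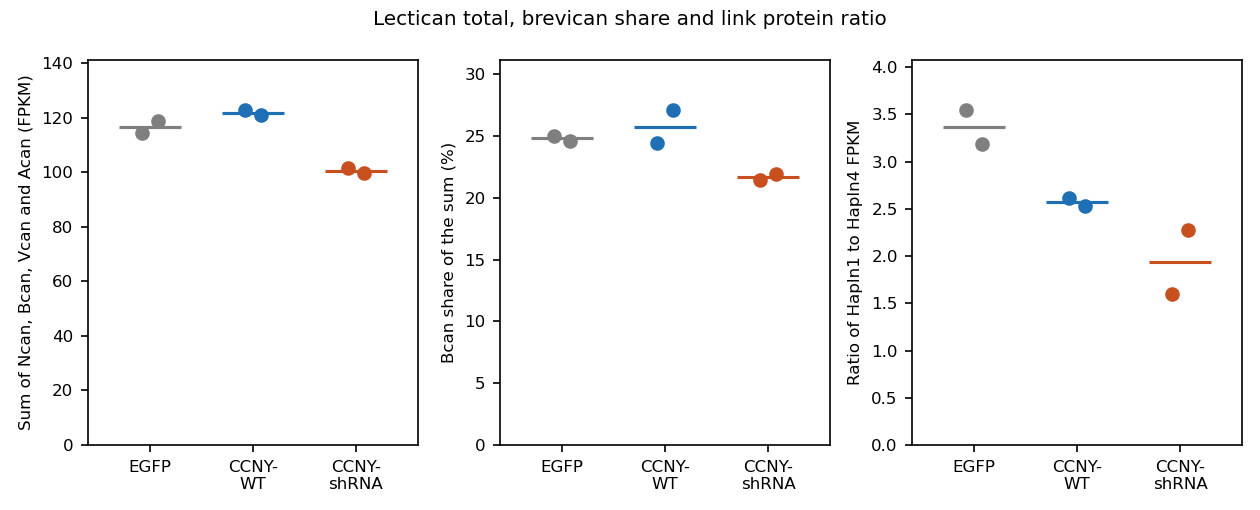
Summed FPKM of the 4 lecticans, share of Bcan in that sum (%), and ratio of Hapln1 to Hapln4 FPKM, each from 0, in EGFP, CCNY-WT and CCNY-shRNA; points are libraries and lines the means of 2. The CCNY-shRNA sums at 101 and 99.5 and shares at 21.5% and 21.9% lie below all other libraries.

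In the RefSeq gene table each lectican gene is the direct neighbour of a link protein gene among protein-coding genes: Acan of Hapln3, Bcan of Hapln2, Ncan of Hapln4 and Vcan of Hapln1. Neighbours were not alike in level, and a difference in change between neighbours was not tested. Bcan, with a mean FPKM of 28.9 in the controls, lies next to Hapln2, a link protein of white matter, which was at or under 0.172 in every library. Vcan and Hapln1 had log2 changes of -0.10 and -0.52 in CCNY-shRNA, and Ncan and Hapln4 had -0.16 and 0.29. Hapln3 had an FPKM of 1.33 and 1.49 in the controls, 0.672 and 2.06 under overexpression, and 1.27 and 1.54 under knockdown, a spread within CCNY-WT wider than any difference between the conditions.

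Related genes were taken in 6 lists: other chondroitin sulfate proteoglycans and hyaluronan genes, chondroitin sulfate synthesis, matrix proteases and their inhibitors, reelin signalling, receptors of lecticans and tenascins, and heparan sulfate proteoglycans. Of 101 listed genes that are not matrix genes of the set, 71 could be tested. In CCNY-shRNA 2 were lower past the adjusted threshold (Cspg5 and Itgb8) and 0 were higher, where 0.579% and 0.167% of all genes tested were, and 15 lower and 6 higher had an unadjusted p under 0.05, where 9.36% and 9.20% of all genes tested had. In CCNY-WT 0 passed in either direction by limma, with 3 lower and 8 higher at an unadjusted p under 0.05, beside 3.00% and 3.83% of all genes tested. Directly between CCNY-shRNA and CCNY-WT 0 passed by limma, beside 0.196% lower and 0.0196% higher among all genes tested, with 11 lower and 3 higher at an unadjusted p under 0.05, beside 7.12% and 5.05%.

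Among the other proteoglycans, 10 of 17 genes could be tested and 9 were lower in CCNY-shRNA, where 49.8% of all genes tested were. The list had a median log2 change of -0.12. Cspg5 (neuroglycan C), a membrane-bound chondroitin sulfate proteoglycan of the brain, fell from 80.8 and 86.3 in EGFP to 66.4 and 62.6 under knockdown, with 76.5 and 78.1 under overexpression. Its log2 change in CCNY-shRNA was -0.37 (standard error 0.0606, limma adjusted p = 0.0456), and the call was lost under 10 of 15 other settings, with adjusted p-values up to 0.283. It was lost without EGFP replicate 1 (adjusted p = 0.151), EGFP replicate 2 (0.283), CCNY-WT replicate 1 (0.107), CCNY-WT replicate 2 (0.106) or CCNY-shRNA replicate 2 (0.0914). The most abundant of this list, the testican genes Spock2 and Spock1, had 566 and 559 and 169 and 170 in the controls against 566 and 534 and 173 and 153 under knockdown. Of the hyaluronan synthases, which make the backbone of the net, Has1 was at most at 0.536 and Has2 at most at 0.221 and Has3 between 1.89 and 2.94.

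Of the chondroitin sulfate synthesis genes, 10 of 17 tested were higher and 7 lower in CCNY-shRNA, where 49.8% of all genes tested were lower, and 12 were higher and 5 lower in CCNY-WT, where 48.6% were lower, with median log2 changes of 0.10 and 0.09. None passed the adjusted threshold, and 3 higher and 1 lower had an unadjusted p under 0.05 in CCNY-shRNA, against 5 higher and 0 lower in CCNY-WT. Of all genes tested, 9.20% were higher and 9.36% lower in this way in CCNY-shRNA, and 3.83% and 3.00% in CCNY-WT. Ust, the sulfotransferase that adds sulfate to the uronic acid of the chain, had 6.89 and 6.91 in the controls, 10.7 and 10.8 under overexpression and 10.7 and 9.48 under knockdown. Both conditions lay above both controls without overlap (log2 change 0.64, limma adjusted p = 0.332 in CCNY-WT, and 0.54, adjusted p = 0.0828 in CCNY-shRNA). B3gat3, which finishes the linker on which the chain is built, had 58.7 and 60.8 in the controls, 71.0 and 73.0 under overexpression and 67.3 and 68.1 under knockdown, also without overlap (log2 change 0.27, adjusted p = 0.427, and 0.18, adjusted p = 0.149). Chst11, a chondroitin 4-sulfotransferase, had 48.8 and 48.6 in the controls against 52.1 and 57.2 under overexpression and 54.5 and 51.7 under knockdown.

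Of the matrix proteases and inhibitors, 13 of 21 could be tested and 0 passed the adjusted threshold in CCNY-shRNA. At an unadjusted p under 0.05, 2 were lower and 0 higher, where 9.36% and 9.20% of all genes tested were. The 2 lower genes were the inhibitors Timp3, at 10.5 and 9.60 in the controls against 7.45 and 7.78 (log2 change -0.40, limma adjusted p = 0.139), and Timp1, at 24.5 and 28.9 against 17.2 and 23.3 (-0.41, adjusted p = 0.194). The abundant Timp2 had 356 and 382 in the controls, 428 and 417 under overexpression and 361 and 359 under knockdown. Mmp16, a membrane-bound metalloproteinase, had 24.1 and 27.9 in the controls against 28.0 and 24.0 under knockdown. The lectican-cleaving aggrecanases Adamts4 and Adamts5 were at most at 0.661 and 0.414. Of the other Adamts genes of this list, Adamts9 was at most at 0.492 and Adamts1 lay between 1.18 and 1.83. Adamts15 had 3.04 and 3.65 in the controls against 2.19 and 2.81 under knockdown (log2 change -0.43, limma adjusted p = 0.299).

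In the reelin pathway, reelin binds the receptors Vldlr and ApoER2, which recruit the adaptor Dab1, and phosphorylated Dab1 then recruits Crk. Of 15 listed genes 12 could be tested and 0 passed the adjusted threshold in CCNY-shRNA. At an unadjusted p under 0.05, 1 was lower and 2 higher, where 9.36% and 9.20% of all genes tested were. Vldlr had an FPKM of 36.7 and 36.8 in the controls and 34.8 and 31.9 under knockdown (log2 change -0.14, 95% interval -0.31 to 0.03). Dab1 had 28.9 and 29.7 in the controls, 29.9 and 31.8 under overexpression and 20.8 and 24.9 under knockdown, lower without overlap (log2 change -0.36, limma adjusted p = 0.120). Crk had 52.6 and 55.1 in the controls against 67.6 and 65.0 under knockdown, higher without overlap (log2 change 0.30, adjusted p = 0.0650). Ligand and adaptor thus stood below the control while Crk stood above it, and none of these differences passed the threshold.

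Among receptors of lecticans and tenascins, 10 of 15 could be tested and 1 was lower past the adjusted threshold in CCNY-shRNA. At an unadjusted p under 0.05, 6 were lower and 1 higher, where 9.36% and 9.20% of all genes tested were. Itgb8, an integrin subunit that binds matrix ligands, fell to 1.02 and 1.11 from 2.76 and 2.47 in EGFP (log2 change -1.29, standard error 0.193, limma adjusted p = 0.0425). Its values lie near the floor of 1, and the call was lost under 12 of 15 other settings, among them leaving out any 1 of the 6 libraries, with adjusted p-values up to 0.248. Cntn1, a neuronal adhesion protein that binds tenascin-R, had 305 and 310 in the controls, 299 and 279 under overexpression and 287 and 252 under knockdown (log2 change in CCNY-shRNA -0.19, adjusted p = 0.216). Rtn4rl2, a Nogo receptor homologue, had 90.6 and 91.0 in the controls against 82.6 and 80.7 under knockdown (-0.15, adjusted p = 0.173). Of the heparan sulfate proteoglycans, 10 of 13 could be tested and 8 were lower under knockdown, where 49.8% of all genes tested were. The list had a median log2 change of -0.18 and 0 passed the adjusted threshold. At an unadjusted p under 0.05, 3 were lower and 0 higher, where 9.36% and 9.20% of all genes tested were. Among these 3, Sdc4 (syndecan-4) had 5.46 and 6.20 in the controls against 3.47 and 4.42, and Agrn (agrin), which organizes synapses at the neuromuscular junction, had 44.5 and 49.4 against 42.2 and 38.2. The study reports Itgb8 and Sdc4 as regulated by CCNY in its qRT-PCR.

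**Figure D5:**
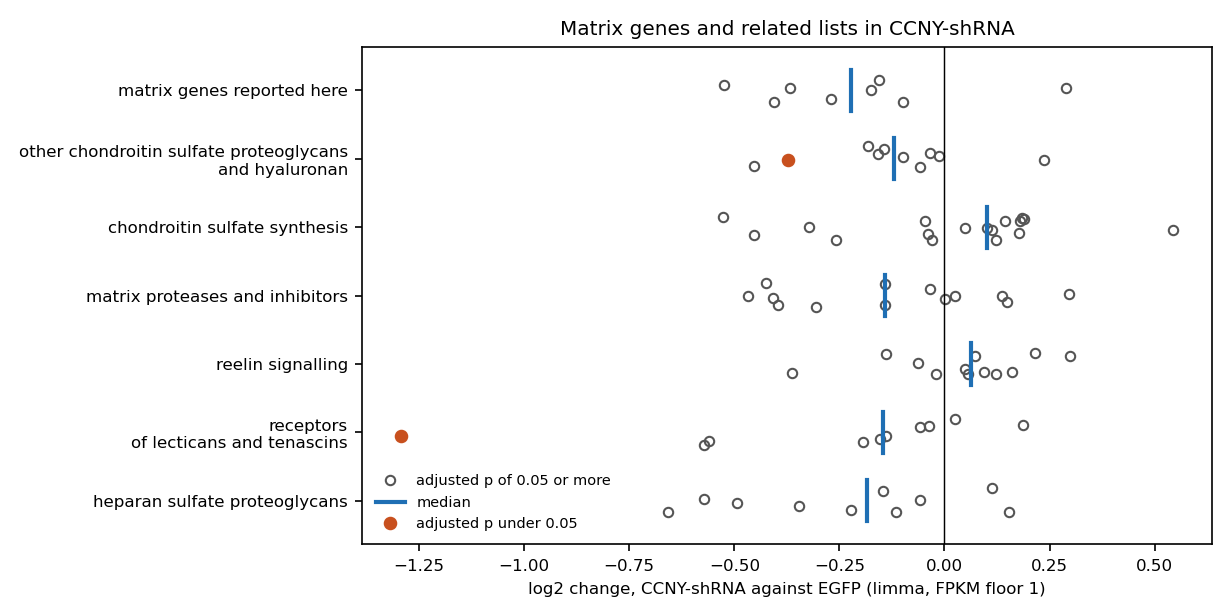
Log2 change in CCNY-shRNA against EGFP (horizontal axis) of the 8 matrix genes and of every tested gene of the 6 related lists, 1 point per gene; blue bars are medians, filled points passed limma's adjusted threshold of 0.05. The median is -0.22 for the matrix genes and 0.10 for chondroitin sulfate synthesis, and the filled points are Cspg5 at -0.37 and Itgb8 at -1.29.

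Cell type markers were read beside these results. Neuron markers summed to an FPKM of 3947 to 4014 in the controls, 3837 to 3852 in CCNY-WT and 3931 to 4009 in CCNY-shRNA, which fits the label of the culture. Interneuron markers summed to 2276 to 2387, 2296 to 2323 and 1976 to 2143, lower in CCNY-shRNA than in the other 4 libraries. This sum is weighted by its most abundant gene, Sst, at 1256 and 1311 in the controls against 1043 and 1158 under knockdown. Npy, the next most abundant, had 403 and 451 against 377 and 427, with overlap. The median log2 change of the tested interneuron markers in CCNY-shRNA was -0.09. Of 11 tested interneuron markers 4 had a lower level with an unadjusted p under 0.05 in CCNY-shRNA, and 1 passed the adjusted threshold, Gad2, a GABA-synthesizing enzyme, at 170 and 173 in the controls against 129 in each library (log2 change -0.41, limma adjusted p = 0.0226, lost under 7 of 15 other settings, with adjusted p-values of 0.128 and 0.232 without EGFP replicate 1 and 2 and of 0.0632 and 0.0623 without CCNY-WT replicate 1 and 2). The other enzyme for GABA synthesis, Gad1, was at 189 and 188 against 183 and 187. Of the 11 tested markers 8 were lower in CCNY-shRNA, where 49.8% of all genes tested were. The 3 higher were Kcnc1, Calb2 and Kcnc2, with log2 changes of 0.13, 0.06 and 0.02. Beside the 4 of 11 that were lower at an unadjusted p under 0.05 stood 9.36% of all genes tested. Pvalb, the marker of the interneurons that carry most nets, was at 0 in 3 libraries and at most at 1.46.

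Astrocyte markers matter because astrocytes also make Ncan and Bcan. Their FPKM summed to 978 to 1041 in the controls, 1056 to 1081 in CCNY-WT and 892 to 1099 in CCNY-shRNA. The range of CCNY-shRNA overlapped those of both other conditions, while both CCNY-WT libraries lay above both controls. This sum is weighted by its most abundant gene, Fabp7, at 441 and 464 in the controls against 422 and 556 under knockdown. Of 9 tested astrocyte markers, 6 were lower and 3 higher in CCNY-shRNA, where 49.8% of all genes tested were lower. Their median log2 change was -0.13, and 0 passed the adjusted threshold. At an unadjusted p under 0.05, 2 were lower, the glutamate transporters Slc1a2 and Slc1a3, where 9.36% of all genes tested were. Oligodendrocyte lineage markers summed to 55.2 to 56.1, 53.3 to 57.7 and 47.6 to 49.5, with Sox10 at 0 and Pdgfra and Cspg4 at most at 0.537 and 0.275, and of 6 tested 0 passed. Of the Cajal-Retzius markers, Tp73, Lhx1 and Ebf3 were at or under 0.201 in every library and Lhx5 at most at 1.17, while Calb2, which interneurons share, lay between 32.0 and 36.1, and the summed list stood at 33.3 to 34.0, 36.7 to 36.8 and 33.7 to 35.2. Microglia markers summed to at most 1.50 in any library, with Aif1 and Cx3cr1 at 0. Vascular and meningeal markers summed to 68.6 to 78.0, 83.2 to 83.7 and 78.1 to 88.6, with Cldn5 at 0. Of 3 tested, Mgp alone passed in CCNY-shRNA, at 14.3 and 21.5 against 4.07 and 5.11 in EGFP, where 0.167% of all genes tested passed as higher. In CCNY-WT Mgp also lay above both controls, at 8.15 and 8.21 (log2 change 0.84, limma adjusted p = 0.614). The part of the interneuron, astrocyte and oligodendrocyte lineage markers in the lower levels of Bcan, Hapln1 and Reln was not tested.

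Likeness of pattern was measured as the root mean square difference between log2 profiles over the 6 libraries, each centred on its own mean, among 8055 genes with a mean FPKM of at least 5. For Bcan the nearest genes were Gad2 (0.0394), Adi1 (0.0507) and Slc35e2b (0.0530). Within the set Hapln1 was nearest (0.111), at rank 107 of 8054 genes compared. For Reln the nearest genes were Plxna2 (0.0194), Clcn4 (0.0213) and Myt1l (0.0265), and within the set Tnr (0.0801), at rank 226 of 8054. Bcan and Reln stood 0.165 apart, as far as Reln lies from a flat profile (0.165). These distances describe 6 libraries of 3 conditions and carry no test.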

How the data were processed

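RNA-seq was measured in 6 libraries, 2 a condition. The authors mapped paired-end reads to rn4 with TopHat 2 and computed FPKM with Cufflinks, and the deposited FPKM values were used as given. The submitters' processing notes name Cufflinks 2.2.1, Bowtie2 2.1.0 and SAMtools 0.1.19. The annotation, the scaling between libraries and whether fragments were counted by strand are not given in the sources used here. The labels name a stranded TruSeq mRNA kit and the paper's methods a TruSeq RNA kit without that word, so an FPKM may include antisense fragments. A change in FPKM is relative to the other RNA of a library. The depth is unknown beyond the relative estimate, so counting error could not be given.

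Before testing, any FPKM under 1 was set to 1, as in the study, and log2 was taken. limma 3.58.1 in R 4.3.3 (moderated with an eBayes trend) was fitted over all 6 libraries, after a test on simulated data. Folds come from fitted log2 changes. Python 3.11.15 with pandas 2.3.3, numpy 2.4.6 and matplotlib 3.10.9 handled tables and figures. All 8 symbols matched RefSeq (GRCr8), which was used for names, neighbours and sequences.

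The genes and lists were chosen with earlier results of these data known. Named genes are the 8 matrix genes, Ccny and, from each list, those past the adjusted threshold, otherwise the 2 smallest p-values in CCNY-shRNA, plus for 4 lists the 2 highest means. Vldlr and Dab1 were named for their role, and Lrp8, the gene of ApoER2, was not analysed here. Adamts1, Adamts4, Adamts5, Adamts9, Adamts15, Has1, Has2, Has3, Hapln2 and Hapln3 were named after their values were seen. Alternatives covered the offset, the filter, the scaling, the spread, the samples in the fit, a replicate block and each library left out.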

Additional observations from a re-analysis of the deposited data

How the results depend on the processing

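The count of matrix genes past limma's adjusted threshold was 0 in CCNY-WT and in CCNY-shRNA against EGFP under all 15 alternatives. Between CCNY-shRNA and CCNY-WT it was 1 (Bcan) with log2(FPKM + 1), log2(FPKM + 0.1) or the filter on mean FPKM. The 2 related genes called in CCNY-shRNA were 1 with log2(FPKM + 1), log2(FPKM + 0.1) or upper quartile scaling, 0 with no filter, eBayes without a trend or only the 4 libraries of the groups compared, and 0 to 1 with a library left out. The genes past the study's difference in either direction were 3 to 4 in CCNY-shRNA and 0 to 1 in CCNY-WT with a library left out, but not the same genes throughout: Reln dropped out and Hapln4 passed as higher without EGFP replicate 2 or CCNY-shRNA replicate 2.

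With a replicate block the count of related genes called in CCNY-shRNA was 0, and all genes called there went from 76 to 39. Same-numbered libraries deviated together with r = 0.144 for EGFP and CCNY-WT, -0.0286 for EGFP and CCNY-shRNA and 0.137 for CCNY-WT and CCNY-shRNA over 8055 genes, and nothing says that the numbers mark a shared culture. The block changed no other call of a matrix gene.

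Small changes turned sign. With a library left out, the log2 change in CCNY-WT ranged from -0.0905 to 0.0494 for Acan and from -0.0765 to 0.0549 for Hapln1, and between CCNY-shRNA and CCNY-WT from -0.25 to 0.0816 for Hapln4 and from -0.0608 to 0.0448 for Vcan, which was 0.0317 with quantile normalization and 0.0059 with upper quartile scaling. The cause was not tested. Of all genes, 76 were called in CCNY-shRNA, but 1 without either EGFP library, 18 and 26 without CCNY-WT replicate 1 and 2, 39 without CCNY-shRNA replicate 2, 1 without a trend or with only 4 libraries, and 2 with no filter. Between CCNY-shRNA and CCNY-WT 22 became 1 without either CCNY-WT library, without a trend or with only 4 libraries, 8 without either EGFP library and 2 with no filter. In CCNY-WT 1 became 3 with log2(FPKM + 1) or the mean filter. A lone library was assumed to vary like the other groups. All these counts rest on 2 libraries a group, and the standard errors of the low genes Acan, Vcan and Hapln4 in CCNY-shRNA (0.154, 0.138 and 0.175) were above that of Bcan (0.0752).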
